A study of Rattus norvegicus with 6 samples.

Results

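The genes described here are the neutrophil-attracting chemokines Cxcl1, Cxcl2, Cxcl3 and Cxcl6 and the receptors Cxcr1 and Cxcr2 of the rat, 6 of the 16383 genes in the count table. They were chosen by family and by the cell classes in which earlier results of these data had shown them, including Cxcr1 in alveolar macrophages, so levels by class and the treatment effect on Cxcr1 in alveolar macrophages are given as a description with no test. The study asked how the cells of a fibrotic lung differ from those of an uninjured one. Sprague Dawley rats aged 8 to 10 weeks received 1 intratracheal dose of bleomycin (BLM, a DNA-damaging drug used to model lung fibrosis) at 5 mg/kg, or saline as the control. Lungs were taken on day 28 from 3 rats per group, a small piece was digested to free cells, and whole transcriptome libraries were made in microwells with the BD Rhapsody system. Each library is 1 rat, so the n of each mean, SD and test between groups is the number of rats, while shares of cells with a UMI pool the cells of a group.

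CXC chemokines are small secreted proteins, and those with the ELR motif before the first cysteines draw neutrophils out of the blood through Cxcr1 and Cxcr2, G protein-coupled receptors on the neutrophil surface. Their genes are kept low in resting cells and are switched on within hours by interleukin 1, tumour necrosis factor or bacterial products through the transcription factor NF-kB. In the lung, macrophages, the alveolar epithelium and stromal cells can all release them. Cxcl1, Cxcl2 and Cxcl3 are close relatives, and Cxcl6 is an epithelial and stromal chemokine of the same group.

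In the RefSeq annotation of the rat build GRCr8 the 4 chemokine genes lie along chromosome 14. There Cxcl2 and Cxcl1 are direct neighbours, 3 annotated genes separate Cxcl1 from Cxcl3 and 4 separate Cxcl3 from Cxcl6, and Cxcr2 and Cxcr1 are direct neighbours on chromosome 9. The 120 bases before the annotated start, written 5′ to 3′ on the coding strand, are shown for Cxcl1, Cxcl2 and Cxcl6, because chemokine genes of this family are known to be switched on through NF-kB. For Cxcl3 no promoter sequence was available, so its window was not searched. Capitals mark each match of a form of the NF-kB site, GGG followed by any 2 bases and TTTCC, or of its reverse complement. The windows are minus strand chr14:17479322-17479441 for Cxcl1, minus strand chr14:17467256-17467375 for Cxcl2 and minus strand chr14:17596418-17596537 for Cxcl6.
Cxcl1: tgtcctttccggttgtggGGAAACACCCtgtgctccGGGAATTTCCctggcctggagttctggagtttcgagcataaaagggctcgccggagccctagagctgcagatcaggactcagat
Cxcl2: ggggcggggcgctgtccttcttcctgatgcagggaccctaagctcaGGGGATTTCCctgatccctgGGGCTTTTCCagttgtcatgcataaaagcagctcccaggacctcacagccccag
Cxcl6: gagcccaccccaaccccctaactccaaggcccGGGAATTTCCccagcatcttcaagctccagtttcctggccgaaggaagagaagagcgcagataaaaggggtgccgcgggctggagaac
The windows of Cxcl1 and Cxcl2 held 2 matches each and that of Cxcl6 held 1. No match was found in the windows of Cxcr1 (minus strand chr9:83220226-83220345) and Cxcr2 (plus strand chr9:83178525-83178644). Of all 33469 promoter windows of that length, 213, or 0.636%, held a match on either strand. The motif was chosen after the sequences had been seen, and a match is a description of letters, not of binding.

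The table held 25547 cells, 3372, 2568 and 4598 from control rats 1 to 3 and 3657, 7481 and 3871 from BLM rats 1 to 3, with between 3860028 and 16598959 unique molecular identifiers (UMIs, each 1 captured transcript) per rat. Of 25232 cell labels, 313 occurred in 2 libraries and 1 in 3, and whether those labels are the same cells was not tested. Leiden clustering without the 6 genes gave 28 clusters, of which 26 took a class name from marker lists and 2 stayed unnamed. Each class is called after its markers, as in "neutrophil-like", and its level of a gene is given in CPM, that is the gene's UMIs scaled to all UMIs of that class in that rat. Beside shares of cells with a UMI the same share in B cell-like cells is given, since these cells should lack the 6 genes and carry only free RNA from other cells.

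In the sums of all cells of a rat the chemokines moved in different directions. Cxcl1 stood at 1309, 1602 and 1259 CPM in control rats and at 1354, 1869 and 1042 CPM in BLM rats, and the groups overlapped. Cxcl2, which had 1062, 868 and 798 CPM in control rats, reached 1892, 2063 and 1332 CPM in BLM rats, all above the controls. Cxcl3 went the other way, from 503, 1057 and 855 CPM to 158, 220 and 112 CPM, again with no overlap. By edgeR, 17.4% of 13346 genes were called in these sums, and of the 6 genes Cxcl2 rose (log2 difference 0.92, SE 0.23, adjusted p = 0.029) and Cxcl3 fell (log2 difference -2.33, SE 0.34, adjusted p = 0.0045), while Cxcl1 differed by 0.00 on the log2 scale (SE 0.24). The call of Cxcl2 was lost when any rat other than BLM 3 was left out, with log2 differences between 0.74 and 1.13 over the 6 fits, and the Cxcl3 call was kept in all 12 alternatives. Cxcl6 was rare, with 17, 29 and 77 UMIs in control rats and 46, 171 and 71 in BLM rats. Cxcr2 had 19.9, 45.9 and 33.8 CPM in controls and 19.2, 31.3 and 27.7 CPM after BLM, and Cxcr1 had 137, 48.7 and 210 CPM in controls and 66.7, 56.8 and 49.2 CPM after BLM. In sums of all cells, fewer cells of a class and less RNA per cell cannot be told apart. The makeup changed strongly: alveolar type 2 cell-like cells were 7.23% ± 1.16 of cells in controls and 0.828% ± 0.563 after BLM, and alveolar macrophage-like cells 34.9% ± 4.07 and 15.4% ± 0.915 (SD, n = 3 rats).

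Behind the steady total of Cxcl1 the cells that held its transcripts were different ones. In control rats 73.4%, 78.8% and 73.5% of Cxcl1 UMIs lay in alveolar type 2 cell-like cells, the surfactant-making cells of the alveolus, and after BLM 1.53%, 1.92% and 5.18% did. The UMIs of BLM rats were spread over mesothelial cell-like cells of the lung lining (24.2% ± 13.96), interstitial macrophage-like cells (23.4% ± 9.26), fibroblast-like cells (16.1% ± 5.66) and alveolar macrophage-like cells (14.02% ± 7.94), whose control shares were 4.63% ± 2.11, 6.01% ± 2.48, 0.652% ± 0.699 and 4.92% ± 1.68. The largest share differed by rat: BLM 3 had 40.3% of its Cxcl1 UMIs in mesothelial cell-like cells, which were 11.1% of its cells and 1.64% and 2.54% of those of BLM 1 and BLM 2.

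Cxcl3 UMIs lay mostly in epithelium in controls and were spread more widely after BLM. Alveolar type 2 cell-like cells held 79.9%, 92.9% and 77.9% of its UMIs in control rats and 3.13%, 12.4% and 29.7% after BLM. Club cell-like cells, the secretory cells of the small airways, held 6.92% ± 3.65 in controls and 38.7% ± 20.4 in BLM rats. Interstitial macrophage-like cells held 0.498%, 0.123% and 0.0769% in control rats 1 to 3 and 13.8%, 41.3% and 2.54% in BLM rats 1 to 3. Alveolar macrophage-like cells held 6.61%, 1.74% and 5.28% in controls and 24.2%, 9.65% and 3.46% after BLM. Cxcl6 UMIs were likewise 84.1% ± 10.9 in alveolar type 2 cell-like cells of controls, and after BLM 49.6% ± 36.1 in club cell-like and 37.4% ± 33.6 in mesothelial cell-like cells, with few UMIs behind each value.

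Cxcl2 came from leukocytes in both groups. Alveolar macrophage-like cells held 33.0% ± 9.60 of its UMIs in controls and 45.9% ± 13.1 after BLM, interstitial macrophage-like cells 18.1% ± 4.53 and 29.1% ± 9.20, and neutrophil-like cells 25.1% ± 11.4 and 13.6% ± 3.22, and the groups overlapped in all 3 classes. Classical monocyte-like cells held 11.9% ± 1.84 in controls and 2.88% ± 1.19 after BLM, without overlap. Cxcr1 UMIs lay to 92.4% ± 0.359 in alveolar macrophage-like cells of controls and to 80.6% ± 9.48 in those of BLM rats. Cxcr2 UMIs lay to 92.6% ± 2.44 and 78.9% ± 6.72 in neutrophil-like cells.

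**Figure D1:**
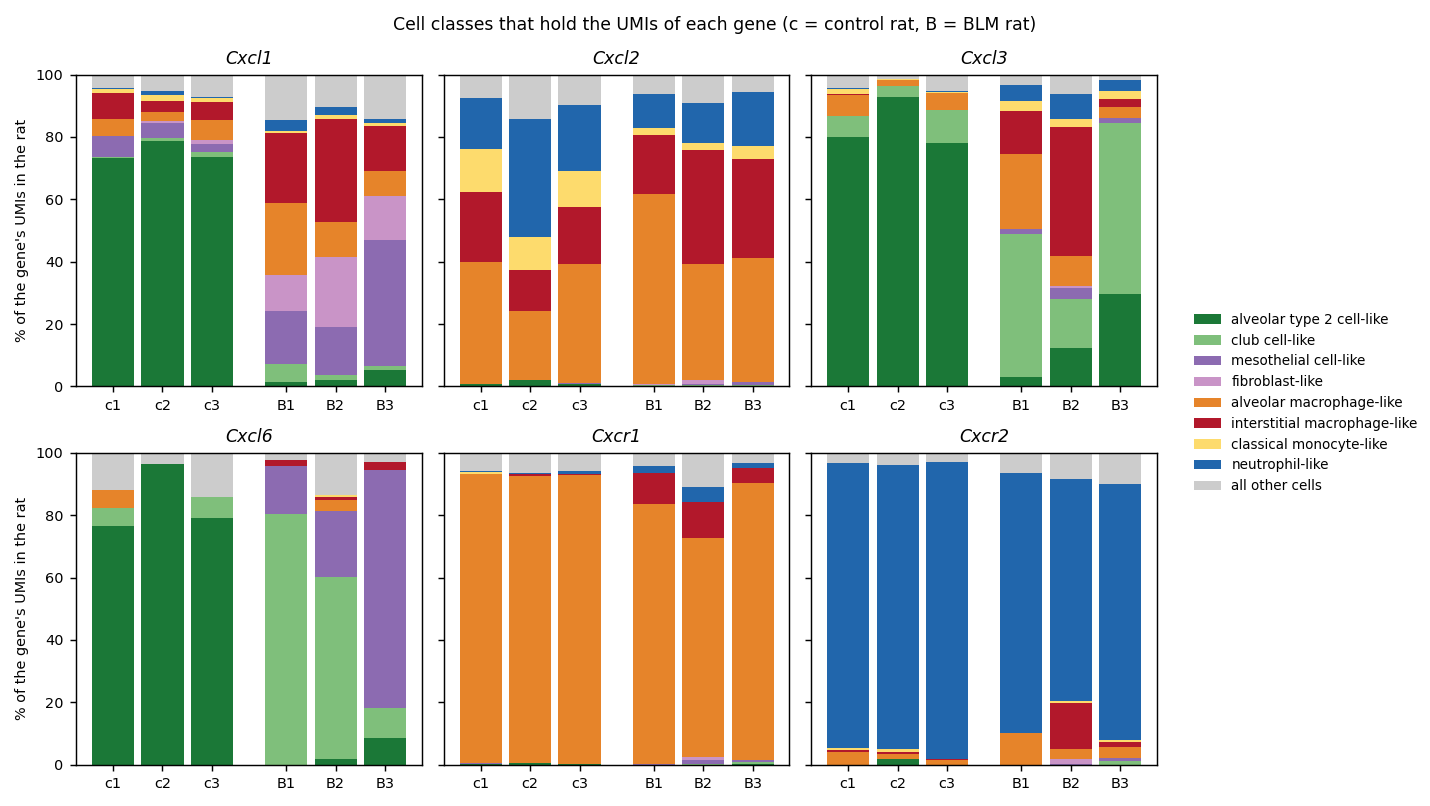
Stacked bars show, for each of the 6 genes, the percentage of its UMIs in a rat (vertical axis, 0 to 100%) that lay in each cell class, for control rats c1 to c3 and BLM rats B1 to B3. The alveolar type 2 part of Cxcl1 is 73.4% or more in each control and 5.18% or less in each BLM rat, while Cxcl2 stays in macrophages, monocytes and neutrophils and Cxcr2 in neutrophils.

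Levels per class are per unit of RNA and do not depend on how many cells the class had. Among the named classes with at least 20 cells in a group, Cxcl1 of control rats was highest in alveolar type 2 cell-like cells (9048 CPM ± 1216), above interstitial macrophage-like cells (5517 CPM ± 2308) and mesothelial cell-like cells (3870 CPM ± 96.2), and only the first of these stood clear of the next one's range. After BLM mesothelial cell-like (6203 CPM ± 2985), alveolar type 2 cell-like (4330 CPM ± 1557) and interstitial macrophage-like cells (2372 CPM ± 784) led, each overlapping its neighbour, and the 227 cells of the unnamed clusters were at 4116 CPM ± 625. For Cxcl2 interstitial macrophage-like (11271 CPM ± 4534) and neutrophil-like cells (8979 CPM ± 2149) led in controls with overlapping ranges, and neutrophil-like cells (8665 CPM ± 1841) stood clear of interstitial macrophage-like cells (3692 CPM ± 817) after BLM. For Cxcl3 club cell-like (7206 CPM ± 2271) and alveolar type 2 cell-like cells (5852 CPM ± 2132) overlapped in controls, as they did after BLM (2238 CPM ± 462 and 2096 CPM ± 783). Ciliated cell-like cells of control 3, only 2 cells, were at 6921 CPM of Cxcl3, within the same range. Levels of different genes are not compared, since the counts are not per length.

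**Figure D2:**
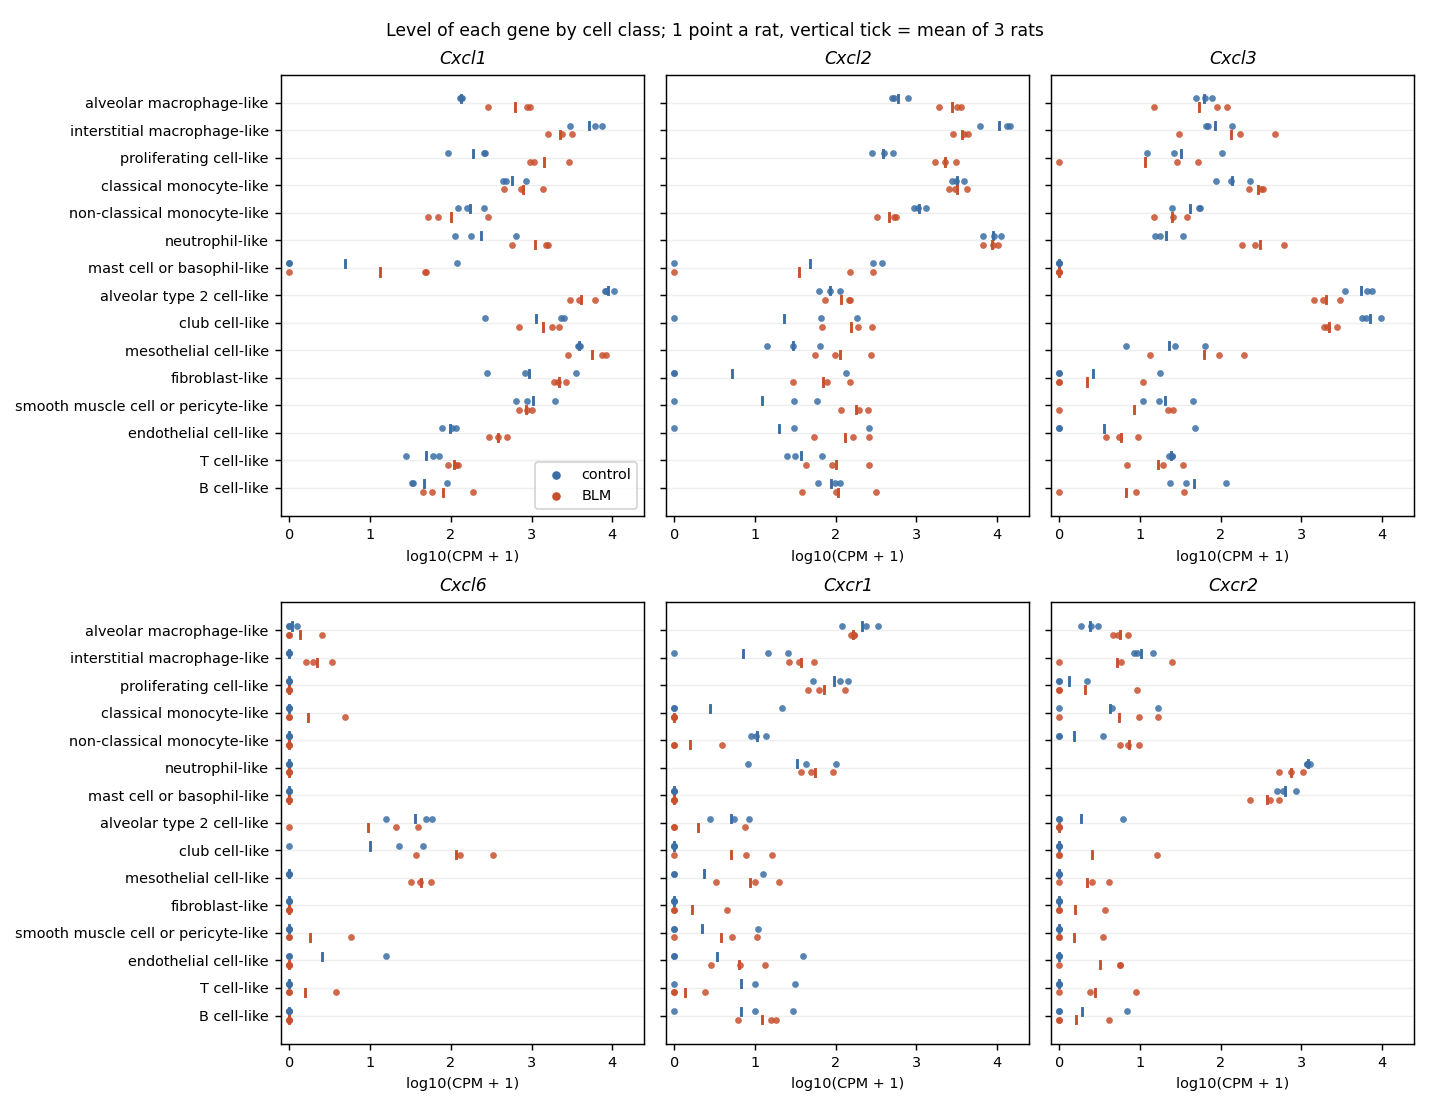
Each panel plots 1 gene's level in 15 cell classes on a log scale, log10(CPM + 1), with 1 point per rat (blue control, red BLM) and a tick at the mean of the 3 log values. Cxcl1 is high in alveolar type 2 cell-like, interstitial macrophage-like and mesothelial cell-like cells, and Cxcl3 in alveolar type 2 and club cell-like cells. Cxcl2 is high in neutrophil- and macrophage-like cells, Cxcr1 in alveolar macrophage-like cells and Cxcr2 in neutrophil-like and mast cell or basophil-like cells.

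For the effect of BLM within a class, UMIs were summed per rat and tested in the 14 classes with at least 20 cells in every rat. Over these classes the members gave 37 tests, since genes with low counts were filtered out class by class, and 13 passed an adjusted p of 0.05, 9 higher and 4 lower after BLM. Cxcl1 was tested in 13 classes and rose in 4 and fell in 1, Cxcl2 was tested in 13 and rose in 3 and fell in 2, and Cxcl3 was tested in 6 and rose in 1. Cxcr2 was tested in 2 classes and passed in both, once in each direction, Cxcr1 was tested in 3 besides alveolar macrophage-like cells without a call, and Cxcl6 passed the filter in no class. A gene that passed the filter only because 1 group was high had to differ, so the shares of tests called are read only against the background given below for each class.

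In alveolar macrophage-like cells, the phagocytes of the air spaces, both Cxcl1 and Cxcl2 were higher after BLM. Cxcl1 was at 135, 127 and 134 CPM in control rats and at 951, 880 and 289 CPM in BLM rats, so the groups were apart, with BLM 3 the lowest of the treated. Cxcl2 was at 774, 502 and 519 CPM in controls and at 3525, 3199 and 1882 CPM after BLM, again with BLM 3 lowest and no overlap. By edgeR, where 11.2% of 9247 genes were called in this class, the log2 differences were 2.41 (SE 0.38, adjusted p = 0.0028) for Cxcl1 and 2.25 (SE 0.27, adjusted p = 0.00055) for Cxcl2. Cxcl3 did not pass (0.18, SE 0.52, adjusted p = 0.87). The share of these cells with a Cxcl2 UMI was 39.6% in controls and 66.0% after BLM, and 17.7% and 46.6% when each cell was thinned to 500 UMIs and 107 shallower cells of each group were left out. B cell-like cells had 2.97% and 5.62% unthinned and 2.36% and 3.42% thinned, with median depths of 576 and 599.5 UMIs against 2995.5 and 4159.5 in alveolar macrophage-like cells.

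The alveolar macrophage-like class joined 3 clusters whose weights differed between groups. A cluster led by Ccl9, Mrc1 and Olr1, the last a receptor for oxidized lipoprotein, made up 76.7%, 78.8% and 71.5% of the class in BLM rats and 11.5%, 1.54% and 12.2% in controls. A cluster led by the zinc transporter Slc39a2 made up 67.2%, 41.3% and 74.9% in controls and 11.3%, 12.1% and 22.5% after BLM. Within the Ccl9 cluster Cxcl2 was at 2332, 1776 and 1633 CPM in controls and 3808, 3392 and 2248 CPM in BLM rats, a log2 difference of 0.71 (SE 0.21, adjusted p = 0.043), and BLM 3 fell within the control range. Within the Slc39a2 cluster Cxcl2 was at 401, 427 and 267 CPM in controls and 1225, 1262 and 450 CPM after BLM, without overlap, and rose by 1.37 (SE 0.30, adjusted p = 0.016). Cxcl1 did not pass the test within any of the 3 clusters (0.56, 0.57 and 0.73 in the Ccl9, the Slc39a2 and the remaining cluster, edgeR adjusted p = 0.29, 0.68 and 0.38), and the part of the cluster weights in its call was not tested. The third cluster, of lower depth, gave 0.48 for Cxcl2 (adjusted p = 0.35). Cxcl3 fell within the Ccl9 cluster (-1.60, SE 0.39, adjusted p = 0.015), from 242, 112 and 260 CPM to 128, 95.01 and 15.9 CPM, a pair of ranges that overlap at control 2, which had 12 such cells.

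In interstitial macrophage-like cells, which lie in the tissue between alveoli and vessels, the same chemokines were lower after BLM. Cxcl2 was at 13169, 6097 and 14548 CPM in control rats and at 2801, 3869 and 4405 CPM in BLM rats, so every control lay above every treated rat. Cxcl1 was at 6143, 2960 and 7448 CPM in controls and at 2389, 3147 and 1579 CPM after BLM, where control 2 fell within the treated range. With 17.1% of 6094 genes called in this class, edgeR gave log2 differences of -1.51 for Cxcl2 (SE 0.32, adjusted p = 0.0052) and -1.10 for Cxcl1 (SE 0.34, adjusted p = 0.034). The Cxcl1 call was lost with DESeq2 (-1.05, adjusted p = 0.092) and without the cells above the 95th UMI percentile of their rat (-0.91, adjusted p = 0.091). It was also lost without BLM 1 (-1.16, adjusted p = 0.078), BLM 3 (-0.90, adjusted p = 0.081), control 1 (-0.96, adjusted p = 0.16) or control 3 (-0.72, adjusted p = 0.22). A cluster led by Apoe and Spp1, genes of lipid-handling macrophages of injured tissue, made up 68.8%, 70.9% and 43.3% of the class in BLM rats and 0.00%, 3.70% and 9.86% in controls. In the other cluster, led by the complement genes C1qc, C1qa and C1qb, neither call held: Cxcl2 was at 13169, 6118 and 17133 CPM in controls and 9292, 9370 and 10841 CPM after BLM (-0.30, adjusted p = 0.75), and Cxcl1 differed by 0.06 (adjusted p = 0.97). The Apoe and Spp1 cluster had too few control cells for a test, and its Cxcl2 level in BLM rats was 1657, 2869 and 1220 CPM.

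**Figure D3:**
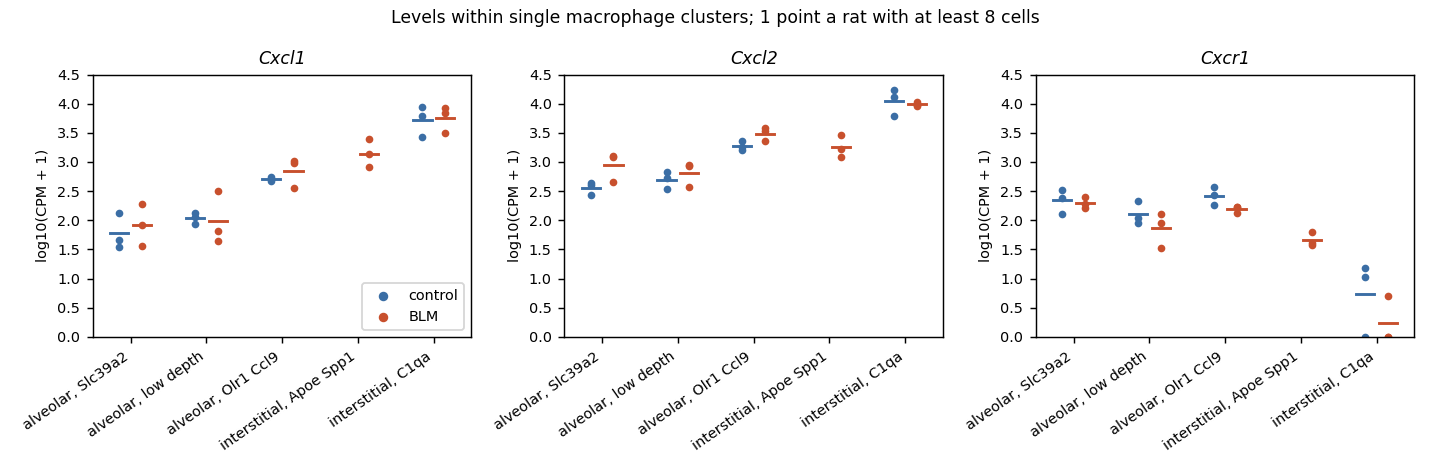
Points show the level, log10(CPM + 1), of Cxcl1, Cxcl2 and Cxcr1 in each rat with at least 8 cells of a macrophage cluster (blue control, red BLM, bar = mean of the log values), for 3 alveolar and 2 interstitial clusters named by leading genes. Within the C1qa cluster the groups overlap for Cxcl1 and Cxcl2, and Cxcr1 is at 14.2 CPM or less there in every rat, below all points of the alveolar clusters.

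The effects in the 2 macrophage classes were set against each other in 1 model with the rat as a block, in which 17.8% of 9505 genes differed. The effect of BLM in interstitial minus that in alveolar macrophage-like cells was -3.19 on the log2 scale for Cxcl1 (SE 0.25, adjusted p = 2e-13) and -3.50 for Cxcl2 (SE 0.27, adjusted p = 1.4e-13), and both were called in all 9 alternatives. For Cxcl3 it was 1.24 (SE 0.41, adjusted p = 0.030). That call was lost with DESeq2 (1.08) and without BLM 2 (0.41), control 2 (1.24, adjusted p = 0.091) or control 3 (0.85). These differences hold for classes whose clusters had the unequal weights given above.

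Neutrophil-like cells, marked by S100a8, S100a9 and Csf3r, were 4.95%, 8.45% and 7.24% of the cells of control rats and 4.76%, 4.77% and 5.27% of those of BLM rats, a difference of -1.95 percentage points (two-sided exact permutation p = 0.2, where 0.1 is the smallest 3 against 3 rats can give). They held high Cxcl2 in both groups, at 11038, 9149 and 6749 CPM in controls and 6713, 8914 and 10369 CPM after BLM, with full overlap and a log2 difference of -0.21 (SE 0.23, adjusted p = 0.55). Cxcl3 was at 16.9, 14.4 and 32.9 CPM in controls and at 262, 600 and 181 CPM in BLM rats, so every treated rat was above every control. Cxcl1 was at 177, 640 and 112 CPM in controls and 1506, 1593 and 579 CPM after BLM, where BLM 3 lay below control 2. Of 3367 genes 19.8% were called in this class, and Cxcl3 rose by 3.73 on the log2 scale (SE 0.51, adjusted p = 0.0010). Cxcl1 rose by 1.88 (SE 0.51, adjusted p = 0.020). The Cxcl3 call was kept in all 16 alternatives. With 14 Cxcl3 UMIs in 717 control cells against 397 in 735 BLM cells, only the BLM rats carried the gene past the count filter. It therefore had to differ, and its adjusted p is not read as support beyond the levels. A Cxcl3 UMI was found in 1.12% of these cells in controls and 9.52% in BLM rats. Thinned to 500 UMIs the shares were 1.36% and 8.499%, against 2.02% and 0.598% of thinned B cell-like cells, so the control share is read as background. The Cxcl1 call was lost with DESeq2 (1.80, adjusted p = 0.14) and without BLM 2 (1.67), control 1 (1.58) or control 3 (1.37).

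Markers of other cells moved with the group in these sums. The 12 neutrophil markers summed to 40597, 35947 and 40388 CPM in neutrophil-like cells of control rats and 16103, 9690 and 18495 CPM of BLM rats, and 8 of the 12 were lower in every treated rat. The 10 alveolar macrophage markers summed to 2804, 2812 and 3266 CPM in controls and 5046, 4914 and 4843 CPM after BLM, with 6 of 10 higher in every treated rat, among them Fabp4 at 8.45, 21.6 and 102 CPM against 642, 594 and 388 CPM, and with Marco at 0. The 11 interstitial macrophage markers summed to 0.00, 180 and 42.8 CPM in controls and 202, 1007 and 191 CPM after BLM. Neutrophil-like cells with no UMI of Fabp4, Mrc1 or Pparg, an alternative chosen after seeing these values, numbered 160, 205 and 312 in controls and 140, 260 and 180 in BLM rats, with median depths between 539 and 696 UMIs. In them 0.676% of 1774 genes were called. Cxcl3 was at 20.7, 17.0 and 44.1 CPM in controls and 296, 1201 and 321 CPM after BLM (log2 difference 4.28, SE 0.59, adjusted p = 0.0020), and Cxcl1 was at 135, 561 and 137 CPM and 1987, 1250 and 832 CPM (2.29, SE 0.45, adjusted p = 0.034), with no overlap for either gene. Cxcl3 again passed the count filter only through the BLM rats, so its adjusted p is not read as support there either. Cxcl2 differed in these cells by 0.30 (SE 0.23, adjusted p = 0.62).

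The epithelium could be tested only with fewer cells, an addition made after the cell numbers were seen, since BLM rat 1 gave 9 alveolar type 2 cell-like cells and control rats 1 and 2 gave 8 and 9 club cell-like cells. In alveolar type 2 cell-like cells Cxcl1 was at 8242, 8456 and 10446 CPM in controls and 6055, 3905 and 3029 CPM after BLM, and Cxcl3 at 3452, 6576 and 7527 CPM and 1450, 2967 and 1870 CPM, with no overlap for either gene. With 2.5% of genes called there, Cxcl1 fell by 1.15 (SE 0.23, adjusted p = 0.0079) and Cxcl3 by 1.46 on the log2 scale (SE 0.29, adjusted p = 0.0081). The Cxcl1 call was lost without control 3 (-1.004, adjusted p = 0.052), and that of Cxcl3 without BLM 1 (-1.28, adjusted p = 0.053) or control 2 (-1.35, adjusted p = 0.052). The 7 club cell markers summed to 8150.0, 10524 and 6539.8 CPM in alveolar type 2 cell-like cells of controls and 51882, 15234 and 26089.6 CPM of BLM rats. Their part in the result was not tested. In club cell-like cells Cxcl3 was at 5591, 6223 and 9803 CPM in controls and 2048, 1901 and 2764 CPM after BLM. With 1.72% of 2502 genes called, it fell by 1.96 (SE 0.43, adjusted p = 0.046), a call lost when any rat but control 2 was left out, with values between -2.22 and -1.50.

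A Cxcl3 UMI was found in 93.8% of 739 alveolar type 2 cell-like cells of controls (95% exact binomial interval 91.8% to 95.4%) and in 75.6% of 127 of BLM rats (67.2% to 82.8%). After thinning to 500 UMIs the shares were 82.8% and 55.6%, and B cell-like cells had 2.02% and 0.598%. A Cxcl1 UMI was found in 89.2% and 57.5%, thinned 82.1% and 44.4%, against 2.36% and 4.27% in thinned B cell-like cells. In the same cells the chemokines occurred together: 96.4% of Cxcl1-positive control cells also had Cxcl3, against 72.5% of those without Cxcl1, which had a median depth of 1142.5 UMIs against 3609. These intervals cover counting error only.

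Cxcl1 also rose in proliferating cell-like and endothelial cell-like cells. In proliferating cell-like cells, which carry macrophage markers besides Top2a and Mki67, Cxcl1 was at 267, 259 and 90.8 CPM in controls and 2931, 951 and 1061 CPM after BLM, and Cxcl2 at 507, 399 and 283 CPM and 3094, 2225 and 1707 CPM, with the groups apart for both genes. With 6.07% of 4682 genes called, the log2 differences were 3.10 for Cxcl1 (SE 0.34, adjusted p = 1.3e-07) and 2.57 for Cxcl2 (SE 0.21, adjusted p = 5.2e-10), kept in all 15 alternatives. The alveolar macrophage markers summed there to between 3861 and 3909.5 CPM in controls and between 4616 and 5293 CPM after BLM, and the classical monocyte markers to between 126 and 182 CPM and between 761 and 1639.8 CPM, whose part was not tested. In endothelial cell-like cells, which line the vessels that neutrophils cross, Cxcl1 was at 114, 103 and 75.8 CPM in controls and 495, 388 and 296 CPM after BLM, all treated rats above all controls. With 6.92% of 6125 genes called, it rose by 2.26 (SE 0.31, adjusted p = 0.00026), also kept in all 16 alternatives and in the larger endothelial cluster alone (2.05, adjusted p = 0.0076). B cell-like cells, which give the level of free RNA, had 31.6, 89.6 and 33.0 CPM of Cxcl1 in controls and 57.3, 188 and 44.0 CPM in BLM rats.

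Cxcl2 fell in non-classical monocyte-like cells, the patrolling monocytes of the vessel wall, from 925, 1328 and 1042 CPM in controls to 321, 564 and 524 CPM after BLM, with no overlap. With 1.06% of 4141 genes called there, the log2 difference was -1.21 (SE 0.19, adjusted p = 0.00077), and it was called in all 15 alternatives. In smooth muscle cell or pericyte-like cells Cxcl2 was at 0.00, 29.1 and 56.7 CPM in controls and 195, 248 and 115 CPM after BLM, and rose by 2.22 (SE 0.42, adjusted p = 0.00082) where 11.2% of 5813 genes were called. Those treated values lay within the range of B cell-like cells of BLM rats, which had 99.0, 314 and 36.7 CPM, so they are not read as expression. The makeup of this class differed as well: a cluster led by Tagln made up 90.6%, 66.1% and 80.2% of it in BLM rats and 12.2%, 27.5% and 32.9% in controls. The 14 fibroblast markers summed to between 22977 and 25692 CPM in controls and between 2608 and 4267 CPM after BLM.

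No member passed the test in the other 7 classes, where few genes did: 0.337% of genes in classical monocyte-like, 2.09% in mesothelial cell-like, 0.235% in B cell-like, 0.666% in T cell-like, 0.0462% in NK cell-like, 0.0468% in dendritic cell-like and 0.515% in plasmacytoid dendritic cell-like cells. Mesothelial cell-like cells had 3790, 3842 and 3976 CPM of Cxcl1 in controls and 8360, 7452 and 2796 CPM in BLM rats, where BLM 3 fell below every control (0.66, SE 0.37, adjusted p = 0.42). Cxcl2 in classical monocyte-like cells stood at 3861, 2744 and 3048 CPM in controls and 2560, 3017 and 4286 CPM after BLM (0.02, SE 0.19, adjusted p = 0.99). Cxcl6 had 0 UMIs in 116 mesothelial cell-like cells of controls, which allows a share of cells with a UMI of up to 2.59%, and in BLM rats 34 of 680 such cells, 5.00%, had one, at 31.5, 56.3 and 41.0 CPM. Club cell-like cells held Cxcl6 at 21.8, 0.00 and 44.2 CPM in controls and 130, 331 and 35.9 CPM after BLM, where BLM 3 lay in the control range. Neutrophil-like cells had no Cxcl6 UMI in 717 control and 735 BLM cells, which allows shares of up to 0.418% and 0.408%.

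Fibroblast-like cells, the collagen-making cells whose share went from 0.435% ± 0.300 to 6.31% ± 2.78, had 280, 829 and 3571 CPM of Cxcl1 in controls, resting on 3, 15 and 29 cells, and 2106, 2673 and 1922 CPM in BLM rats. Set against endothelial cell-like cells in 1 model with the rat as a block, in which 2.56% of 7390 genes differed, the effect of BLM on Cxcl1 was lower in fibroblast-like cells by a log2 difference of -1.80 (SE 0.54, adjusted p = 0.047). The call was lost with DESeq2 (-1.07) and without BLM 1 (-1.46), BLM 2 (-1.84, adjusted p = 0.0996) or control 3 (-0.03).

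**Figure D4:**
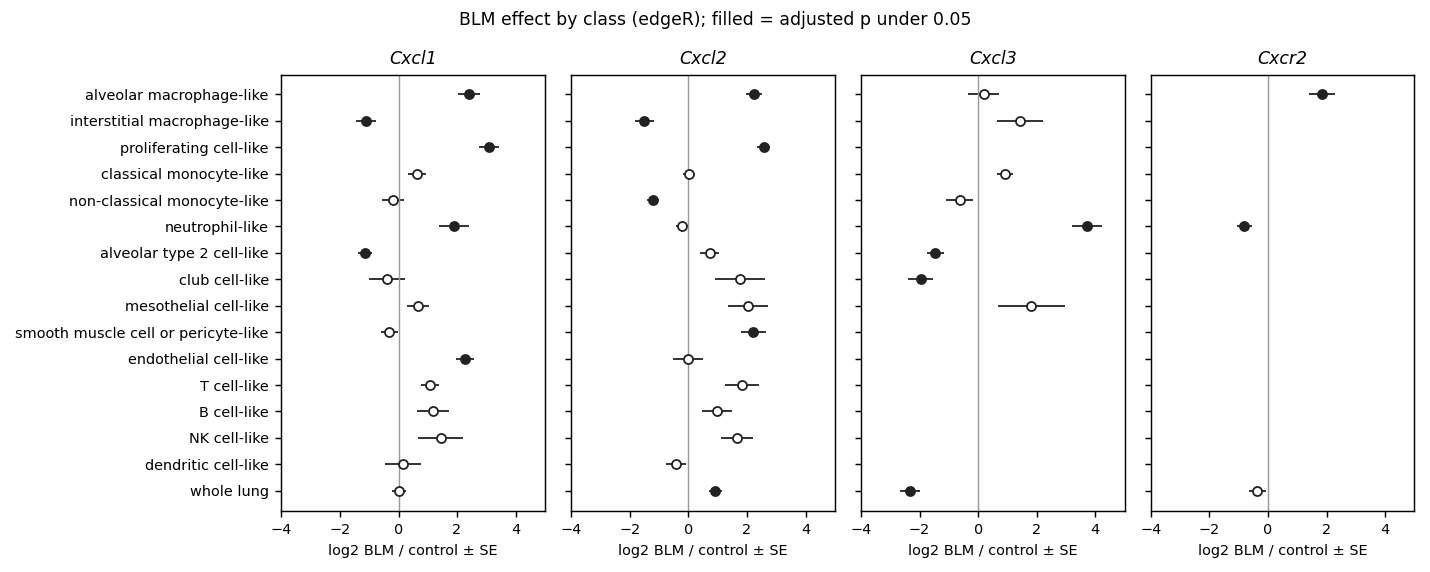
Points give the log2 difference, BLM over control, with its standard error as a bar, for Cxcl1, Cxcl2, Cxcl3 and Cxcr2 in each class where the gene passed the count filter and in the sum of all cells, filled where the edgeR adjusted p was under 0.05. Cxcl1 and Cxcl2 lie to the right in alveolar macrophage-like (2.41 and 2.25) and to the left in interstitial macrophage-like cells (-1.10 and -1.51), and Cxcl3 lies furthest right in neutrophil-like cells (3.73).

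Among the receptors Cxcr2, which binds all of these chemokines, was a neutrophil gene. It stood at 1165, 1158 and 1293 CPM in neutrophil-like cells of controls and at 521, 748 and 1034 CPM in those of BLM rats, every treated rat below every control. A UMI was found in 53.7% of 717 control cells (49.97% to 57.4%) and in 54.7% of 735 cells of BLM rats (51.0% to 58.3%). The unthinned shares of B cell-like cells were 0.106% and 0.121%. After thinning to 500 UMIs, 50.9% and 42.7% of neutrophil-like cells had a UMI. By edgeR the log2 difference in the class was -0.81 (SE 0.25, adjusted p = 0.032), and the call was lost without BLM 1 (-0.60), BLM 2 (-0.77), control 1 (-0.87) or control 3 (-0.80). In the neutrophil-like cells with no UMI of Fabp4, Mrc1 or Pparg the levels were 1346, 1292 and 1643 CPM in controls and 1152, 1721 and 1683 CPM after BLM, with full overlap and a log2 difference of 0.06 (SE 0.20, adjusted p = 0.92). In the remaining cells of the class, which had such a UMI and numbered 7, 12 and 21 in controls and 34, 97 and 24 in BLM rats, Cxcr2 was at 367, 421 and 260 CPM and at 131, 268 and 251 CPM.

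Neutrophil-like cells with Cxcr2 also carried its ligand. In controls 69.4% of Cxcr2-positive cells had a Cxcl2 UMI and 66.6% of Cxcr2-negative ones, and in BLM rats 82.6% and 80.8%, at median depths of 684 and 548.5 UMIs in controls and 631 and 597 after BLM. Mast cell or basophil-like cells were the other class with Cxcr2, at 583, 857 and 498 CPM in controls and 232, 412 and 527 CPM after BLM, on 18 and 53 cells in all, too few to test. The markers S100a9, Csf3r, Mmp8, Mmp9, Il1r2, Ngp and Lrg1 of the neutrophil list were at 0 in them in every rat. The other markers of that list, Retnlg, Mcemp1, S100a8, Lcn2 and Fpr2, were above 0 in at least 1 rat. Retnlg was highest, at 350 CPM in control 1, and Mcemp1 was at 46.5, 58.8 and 47.9 CPM in BLM rats 1 to 3. The source of these UMIs was not tested. Of the 11 measured markers of the mast cell or basophil list, 4 were higher in every BLM rat and 7 overlapped. Among the 4, Cma1 and Tpsab1 were at 0 in every control. In BLM rats Cma1 was at 3813, 2824 and 12220 CPM and Tpsab1 at 1348, 618 and 3738 CPM. The part of this difference in makeup in the Cxcr2 levels of the class was not tested. Alveolar macrophage-like cells had Cxcr2 at 1.48, 2.05 and 0.841 CPM in controls and 6.05, 4.27 and 3.66 CPM after BLM, which passed the test (log2 difference 1.85, SE 0.45, adjusted p = 0.025). After thinning, 0.0549% and 0.139% of these cells had a UMI, no more than the 0.171% of B cell-like cells of BLM rats. Unthinned, 15 of 3752 control and 38 of 2268 BLM cells had one. B cell-like cells had 1.99 CPM ± 3.45 in controls and 1.04 CPM ± 1.80 after BLM, on 1 and 2 UMIs, so after BLM the alveolar macrophage-like level was above theirs. With so few UMIs the level is not read as expression, and whether it is free RNA was not tested. Only the BLM rats carried Cxcr2 past the count filter in this class, so it had to differ. Its adjusted p is not read as support beyond the levels. The Cxcr2 call in alveolar macrophage-like cells was lost with DESeq2 (1.83) and without BLM 1 (1.62), control 1 (1.97) or control 3 (1.48).

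Cxcr1, known from human blood as a second neutrophil receptor for these chemokines, had most of its transcripts in alveolar macrophage-like cells. It stood there at 237, 118 and 333 CPM in control rats and at 169, 166 and 155 CPM in BLM rats, so the treated values lay within the wide control range. The log2 difference was -0.55 (SE 0.30), given as a description. A UMI was found in 39.8% of 3752 control cells (38.3% to 41.4%) and 33.6% of 2268 cells of BLM rats (31.7% to 35.6%). Thinned to 500 UMIs, 11.001% and 7.87% were positive, against 0.337% and 0.342% of B cell-like cells. All 3 alveolar clusters held Cxcr1, and its level was lowest in the third, of lower depth, in every rat. In controls it was 241, 129 and 330 CPM in the Slc39a2 cluster, 273, 180 and 372 CPM in the Ccl9 cluster and 109, 90.4 and 214 CPM in the third, and after BLM 189, 164 and 251 CPM, 168, 168 and 134 CPM, and 129, 89.1 and 32.2 CPM. In the Ccl9 cluster every BLM rat lay below every control. Of Cxcr1-positive alveolar macrophage-like cells 44.1% in controls and 70.9% in BLM rats had a Cxcl2 UMI, against 36.6% and 63.6% of Cxcr1-negative cells, which were shallower (2131 and 3784 against 4456 and 4822 UMIs).

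Other classes held Cxcr1 as well. Proliferating cell-like cells had 113, 51.8 and 139 CPM in controls and 61.8, 129 and 44.7 CPM after BLM, overlapping (-0.35, SE 0.32, adjusted p = 0.63). Interstitial macrophage-like cells had 0.00, 13.6 and 24.3 CPM in controls and 53.3, 34.1 and 25.0 CPM in BLM rats (1.75, SE 0.75, adjusted p = 0.12), and within them the Apoe and Spp1 cluster of BLM rats had 62.7, 39.6 and 37.4 CPM while the C1q cluster had 0.00, 3.996 and 0.00 CPM. In neutrophil-like cells Cxcr1 was at 42.2, 7.19 and 98.7 CPM in controls and 48.4, 91.0 and 36.2 CPM after BLM, on 17 and 38 positive cells. Those cells had median depths of 4432 and 5069.5 UMIs, against 614 and 604 in the Cxcr1-negative ones. In neutrophil-like cells with no UMI of Fabp4, Mrc1 or Pparg, Cxcr1 was at 0.00, 8.499 and 17.6 CPM in controls and 10.6, 6.13 and 0.00 CPM in BLM rats, in the range of B cell-like cells (12.6 CPM ± 14.8 and 12.3 CPM ± 6.28). Mast cell or basophil-like cells had no Cxcr1 UMI, which allows a share of up to 16.7% of 18 control cells and 5.66% of 53 of BLM rats.

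Genes that act with the chemokines were read as 4 lists, of which 9 of 11 other CXC chemokines, 12 of 13 cytokines that induce or accompany the chemokines, 13 of 19 NF-kB regulators and targets, and 22 of 23 genes of receptor signalling and neutrophil arrest were in the table. In alveolar macrophage-like cells 9 of 13 NF-kB genes tested rose and 0 fell, with a median log2 difference of 0.80 against -0.01 over all genes tested. Icam1, the adhesion molecule that holds leukocytes, went from 114, 115 and 96.2 CPM to 674, 634 and 485 CPM (2.45, SE 0.17, adjusted p = 2.4e-05). Bcl3 (2.59) was at 0.739, 1.36 and 1.26 CPM in controls and 4.16, 11.3 and 4.47 CPM after BLM. Ptgs2, the enzyme of prostaglandin synthesis (2.08), was at 0.739, 2.05 and 1.82 CPM and 8.70, 6.78 and 4.06 CPM. Both are among the 9, but passed the count filter only through the BLM rats and had to differ, so their calls are not read as support. Of 6 cytokine genes 3 rose: Il1b (2.78), from 257, 138 and 181 CPM to 1814, 1316 and 914 CPM, Osm (2.24) and Il1a (1.68). Of 4 other CXC chemokines Cxcl10 (1.46) and Cxcl16 (0.60) rose, and of 19 receptor signalling genes Gnai3 (0.51) did. Over all genes 6.6% rose and 4.65% fell in this class. The list values share the unequal cluster weights of the class given above, whose part in them was not tested.

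In interstitial macrophage-like cells the NF-kB list moved the other way, with 0 of 12 tested genes higher and 5 lower (median -0.84 against 0.02 over all genes, of which 8.8% rose and 8.3% fell). Birc3, an inhibitor of cell death, fell by 1.49, Nfkb2 by 1.05 and Rel by 0.99 on the log2 scale. Cxcl10 fell by 1.70 and Cxcl16 by 0.90, and the platelet factor gene Pf4 rose by 0.92. Of 5 cytokine genes the interleukin 1 antagonist Il1rn rose (1.31), and of 17 receptor signalling genes 3 rose and 4 fell, with the integrin chains Itgb2 (1.85) and Itgam (1.12) up and Pik3cg down (-1.39). These values share the cluster weights of the class given above.

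In neutrophil-like cells 4 of 5 cytokine genes fell, with Il1b at -1.09, Osm at -1.01 and Tnfrsf1a at -0.99 (median of the list -0.99 against 0.00 over all genes). Of 17 receptor signalling genes 4 fell, among them the receptor kinase Grk6 (-1.01) and the complement receptor C5ar1 (-0.97). Of 12 NF-kB genes Icam1 rose (1.61) and Birc3 (-0.99) and Ptgs2 (-0.85) fell, and of 3 other CXC chemokines Pf4 rose (1.92). Over all genes tested there, 10.6% rose and 9.12% fell. In the cells with no UMI of Fabp4, Mrc1 or Pparg none of the 29 genes of the 4 lists that could be tested passed (edgeR), with 7 at an unadjusted p under 0.05, and Il1b was at -0.34 and C5ar1 at -0.36. In proliferating cell-like cells 2 of 5 NF-kB genes (Icam1, 3.31, and Sod2, 0.76), 2 of 5 cytokine genes (Il1b, 2.54, and Osm, 1.18) and 2 of 4 other CXC chemokines (Cxcl10, 2.73, and Pf4, 2.45) rose, and of 14 receptor signalling genes the integrin chains Itgal (-0.92) and Itgb2 (-0.59) fell, against 3.503% of all genes higher and 2.56% lower. Endothelial cell-like cells had Cxcl12, a chemokine of another receptor, higher (3.11), from 0.00, 14.7 and 156 CPM to 835, 828 and 821 CPM, as well as Cxcl16 (1.11) among 4 other CXC chemokines, Bcl3 (1.58) and Sod2 (1.49) among 11 NF-kB genes and Gnai3 (1.13) among 9 receptor signalling genes, against 4.05% of all genes higher and 2.87% lower. With controls 1 and 2 at 0.00 and 14.7 CPM, Cxcl12 passed the count filter there only through the BLM rats and had to differ. Its call is not read as support beyond the levels.

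T cell-like cells had Il17a, a cytokine that induces neutrophil chemokines in epithelium, higher after BLM, from 60.3, 0.00 and 0.00 CPM to 325, 134 and 179 CPM (log2 difference 3.02, SE 0.59, adjusted p = 0.024), with Il1b (2.21), Rel (1.46) and Nfkb1 (0.96) also up. Il1b was at only 24.1, 35.7 and 17.7 CPM in controls and 57.3, 133 and 143 CPM after BLM. Neutrophil-like cells of BLM rats held it at 13265, 10878 and 18180 CPM. Whether the Il1b of T cell-like cells is free RNA was not tested. Il17a was at 0.00 CPM in controls 2 and 3, so it passed the count filter only through the BLM rats and had to differ. Its adjusted p is not read as support beyond the levels. Over all genes of the class 0.571% rose and 0.0951% fell. A cluster led by Il2ra and Gata3 made up 26.4%, 19.7% and 56.1% of the class in BLM rats and 15.6%, 14.2% and 14.2% in controls, and its part in these values was not tested. In the sums of all cells, Cxcl12 (5.06) and Cxcl13 (2.91) rose with 2 more of the 8 other CXC chemokines tested and Cxcl17, an epithelial chemokine, fell (-2.83). There Csf2 (-1.53) and Il17ra (-0.88) fell among 9 cytokine genes, Ptgs2 (1.61), Bcl3 (0.90) and Icam1 (0.70) rose among 13 NF-kB genes, and of 21 receptor signalling genes Gnai3 (0.48) rose and Itgal (-1.10) and Plcb2 (-0.66) fell. The medians of the 4 lists were 0.75, 0.17, 0.44 and -0.31, against -0.01 over all genes, of which 11.1% rose and 6.33% fell.

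The genes whose levels followed each member most closely were read from the Pearson correlation of mean log2(CPM + 1) over 35 points, each a class in 1 group with at least 50 cells. Points share rats and free RNA, so r is a description. Cxcl2 was nearest to Apobec1 and Il1b (both 0.89), Cxcl1 to Aldh7a1 (0.82) and Sh3rf1 (0.81), Cxcl3 to the growth factor gene Areg (0.78), and Cxcl6 to Tmem125 (0.91). Cxcr1 was nearest to Cela1 (0.94) and to Slc39a2 (0.93), which leads a cluster of alveolar macrophages, and Cxcr2 to the Fc receptor gene Fcar (0.88). Between members r was 0.60 for Cxcl1 and Cxcl3, 0.29 for Cxcl1 and Cxcl2 and 0.18 for Cxcr1 and Cxcr2.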

How the data were processed

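Single cells of 6 rat lungs, 3 per group, were measured by BD Rhapsody whole transcriptome sequencing. The deposited table holds UMI counts per gene and cell, not normalized, made by the authors. The build named in the submitters' processing notes is mm9 although the samples are rat, and the aligner is not given in the sources used here. Cell names ending in F or N were read as BLM or control because their totals match the cell numbers that the study gives.

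Counts were scaled to 10000 per cell, and 2000 variable genes, without the 6 genes and the 4 lists, gave 30 principal components, 15 neighbours and Leiden clusters at resolution 1 (Python 3.11.15, scanpy 1.11.5, leidenalg 0.10.2, scipy 1.17.1, numpy 2.4.6). A cluster took its name from the best of 25 marker lists if the mean log2 fold over the median of the other clusters reached 1 (pseudocount 10 CPM) with at least 3 markers. The scoring and its tie rule were changed after first output had been seen. No doublet caller was run, and an alternative left out the 1277 cells above the 95th UMI percentile of their rat.

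Counts were summed per rat and class (20 cells or more in each rat, 8 for the added alveolar type 2 and club cell-like classes; no minimum in the fibroblast minus endothelial model) and tested by edgeR 4.0.16 quasi-likelihood in R 4.3.3 with filterByExpr, TMM scaling and Benjamini-Hochberg adjustment over all genes at 0.05. The scripts were tested on simulated data. Alternatives were DESeq2 1.42.0, RLE scaling, no count filter, a replicate block, each rat left out, cells with at least 500 UMIs, Leiden resolutions of 0.5 and 2, clustering with the members kept, and, chosen after seeing the data, single clusters and neutrophil-like cells without macrophage UMIs. Replicates are separate animals, and same-numbered rats of the groups are different animals whose deviations correlated by 0.102, -0.0587 and -0.127 in the whole lung sums, so the numbers do not pair them. No label gives a batch.

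Members and lists were chosen with earlier results of these data known. All members are named, with up to 3 called genes per list and class that had the largest absolute log2 difference. For likeness, the 5 genes with the highest correlation were taken among genes reaching 20 CPM, over points with at least 50 cells. List genes outside the table were not analysed here. A called list gene that the naming rule would give is not reported here. Intervals are exact (Clopper-Pearson, 95%), a count of 0 is read as up to 3 counts, and both cover counting error only.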

Additional observations from a re-analysis of the deposited data

Results flagged for a closer look

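The effect of BLM differed between cell classes for 3 of the chemokines, by a test of the difference itself in 1 edgeR model with the rat as a block. The effect on Cxcl1 in interstitial macrophage-like cells was lower than that in alveolar macrophage-like cells by a log2 difference of -3.19, and the effect on Cxcl2 by -3.50. For Cxcl3 the effect was higher in interstitial macrophage-like cells by 1.24, a call kept in 5 of 9 alternatives. The clusters of both macrophage classes had unequal weights between groups, and their part in these differences was not tested. For Cxcl1 the effect in fibroblast-like cells was lower than that in endothelial cell-like cells by -1.80, with 3, 15 and 29 fibroblast-like cells in the control rats. That call was kept in 5 of 9 alternatives, and the difference was -0.03 without control 3.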

How the results depend on the processing

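Without a filter on low counts 25 tests of members were called over the classes, against 13. In the whole lung sums the replicate block left 1 member called in place of 2, and leaving out 1 rat gave 1 to 2. For fibroblast-like minus endothelial cell-like effects DESeq2 called 0 members, and leaving out 1 rat gave 0 to 1. Of the log2 differences of members under alternatives, 429 stayed on their side of the threshold, 47 lost and 8 gained a call. The 429 include sign changes where neither value was called. An example is Cxcl3 in the Slc39a2 cluster of alveolar macrophages, at -1.53 against 0.18 in the class. Where at least 1 of the values was called, 3 reversed: Cxcl1 in the C1q cluster of interstitial macrophages (0.059), Cxcl3 in the Ccl9 cluster of alveolar macrophages (-1.60) and Cxcr2 in neutrophil-like cells without Fabp4, Mrc1 or Pparg (0.061). The cause was not tested.

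The replicate number, which does not pair the rats, cost 3 calls as a block: Cxcl2 in whole lung (0.90, adjusted p = 0.063), Cxcr2 in neutrophil-like (-0.85, adjusted p = 0.073) and in alveolar macrophage-like cells (1.76, adjusted p = 0.064). Cxcr1 in whole lung gained a call with DESeq2 (-1.28, adjusted p = 0.026) and without control 2 (-1.69, adjusted p = 0.0083). Counts of genes called moved by over 1.5 times in neutrophil-like cells (665, DESeq2 416, block 284, 207 to 783 without 1 rat), smooth muscle cell or pericyte-like cells (650, DESeq2 408, 429 to 690 without 1 rat), proliferating cell-like cells (284, DESeq2 153, 142 to 326), interstitial (1042, 477 to 968 without 1 rat) and alveolar macrophage-like cells (1040, 481 to 1305) and whole lung (2324, 1181 to 2328). The same held for endothelial (424, 263 to 375 without 1 rat), alveolar type 2 (118, 64 to 106, block 64), mesothelial (77, 14 to 94, DESeq2 121, no filter 313), club (43, 1 to 51), non-classical monocyte-like (44, 16 to 46, DESeq2 28, block 26, no filter 92) and T cell-like cells (35, 4 to 118, DESeq2 59, no filter 230). The remaining classes had 11 or fewer genes called and moved as well: classical monocyte-like (11, 0 to 21), B cell-like (10, 0 to 7), plasmacytoid dendritic cell-like (9, 1 to 15), NK cell-like (2, 0 to 3) and dendritic cell-like cells (1, 1 to 2). Few UMIs limit Cxcl6, and few cells limit club cell-like cells of controls (8, 9 and 20).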
